A study of Mus musculus with 10 samples.

Results

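Regions bound by FLAG-tagged Nanog in the Nanog line, and carrying no peak of either protein in any other list, numbered 7334. They were chosen by the overlaps of the called peaks: the peaks of the 4 deposited lists were merged wherever they shared 1 base or more, and a merged region was kept if its only peaks came from FLAG in the Nanog line. These 7334 regions, called Nanog-line-only regions here, were 16.0% of the 45707 merged regions and, with 1 peak each, 19.1% of the 38485 FLAG peaks called in the Nanog line (18.7 to 19.5%). The rule uses the overlaps themselves, so these counts are a description and carry no test.

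ChIP-seq had been run in mouse pre-iPSCs of strain 129/MF1, partly reprogrammed cells made from female neural stem cells and carrying an Oct4-GFP reporter. The cells were transfected with transposon vectors driven by the CAG promoter and selected with drugs as stable lines, and all lines shared this background and were grown in serum with LIF. FLAG was precipitated in a line with FLAG-tagged Nanog plus Sin3a (Nanog + Sin3a line) and in a line with the tagged Nanog plus empty vector (Nanog line). Sin3a was precipitated in the Nanog + Sin3a line and in the Sin3a line (Sin3a with an empty vector), and each of the 4 groups has 2 replicates. There are also 1 input and 1 IgG sample. The FLAG antibody reads the transgenic Nanog alone. Each group has 1 deposited list with no value per replicate, so the spread between replicates is not known for any difference given here, and no test between lines was possible. Intervals are 95% intervals, Wilson for shares and Newcombe for differences of shares. They cover counting error only, and neighbouring regions are not independent.

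Nanog is a homeodomain transcription factor that maintains pluripotency and helps partly reprogrammed cells reach it. It works with Oct4 and Sox2 at enhancers and promoters, where binding sites often lie in groups. Sin3a has no DNA-binding activity of its own. It is the scaffold of a co-repressor complex that carries histone deacetylases, and it reaches chromatin through the transcription factors it binds.

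The Nanog-line-only regions were narrow and weak. The rule itself favours such peaks, because a narrow peak has fewer bases to share and the values used in calling decided which list a peak entered. Width and strength are therefore a description. Their width had a median of 232 bp and ran between 181 and 1318 bp, against a median of 411 bp for the other FLAG peaks of the same list. The authors' fold enrichment, the ratio of ChIP to expected background at the summit of a peak, had a median of 3.69 in these regions (quartiles 3.31 and 4.20), against 5.31 in the rest of the list (4.14 and 7.33). The highest fold was 7.97, against 42.4 in the rest of the list. ChIP fragments at the summit were counted back out of each peak's fold and p-value, with a median of 26 in these regions and of 37 in the rest. A peak of this size has a wide counting error, as the intervals of the strongest regions show.

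The share of the list that was Nanog-line-only fell with the strength of the peak, measured by the authors' −log10 q, a fall that the rule also favours. It was 50.3% among peaks with a −log10 q under 4 (1761 of 3504) and 17.9% at 8 to 10 (820 of 4586). It was 6.52% at 10 to 15 (376 of 5770) and 1.11% at 15 to 25 (66 of 5939). Of 6637 peaks at 25 or more, 1 was Nanog-line-only. Regions with a −log10 q of 10 or more numbered 443, which was 2.41% of the 18346 FLAG peaks of that strength in the Nanog line. The reciprocal class, 6640 regions whose only peak was FLAG in the Nanog + Sin3a line, was 18.3% of its own list. It reached into higher strengths, with 13.2% of that list's peaks at 10 to 15 and 2.76% at 25 or more (155 of 5615). The classes took up near-equal shares of their lists, and strong peaks were fewer among the Nanog-line-only regions. Their median −log10 q was 5.06, and that of the regions of the Nanog + Sin3a line only was 5.64.

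**Figure D1:**
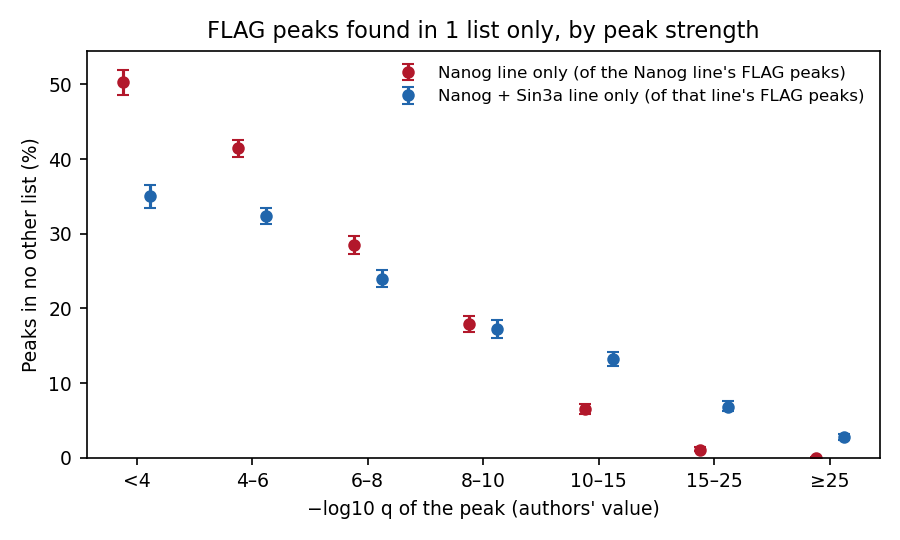
Share of FLAG peaks found in 1 list only (vertical axis, %) by −log10 q of the peak (horizontal axis), with 95% Wilson intervals, for the Nanog line (red) and the Nanog + Sin3a line (blue). Under a −log10 q of 4 the share was 50.3% for the Nanog line and 35.0% for the Nanog + Sin3a line, and at 25 or more it was near 0 for the Nanog line and 2.76% for the Nanog + Sin3a line.

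The 8 strongest Nanog-line-only regions had folds between 7.24 and 7.97 (coordinates in mm9). The strongest, at 88286864-88287225 on chromosome 4, reached a −log10 q of 25.3 at a fold of 7.97, and 54 fragments covered its summit (exact Poisson interval 40.6 to 70.5). It flanked a site that both lines shared. The shared region began 186 bp away and spanned 88287412-88288280, with a FLAG fold of 6.39 in the Nanog + Sin3a line and 5.36 in the Nanog line.

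Next came 63435822-63436371 of chromosome 8, where the fold was 7.96 with 51 fragments (38.0 to 67.1). It too stood beside a shared site, 664 bp away, whose FLAG fold was 7.28 in the Nanog + Sin3a line and 3.38 in the Nanog line. At both of these places the Nanog line had a higher fold in the region it did not share than in the shared one.

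On chromosome 13, the region 100534809-100535139 had 54 fragments and a fold of 7.24, and its nearest neighbour was 10418 bp away. On chromosome 17, 31520863-31521118 reached a fold of 7.50 with 48 fragments (35.4 to 63.6). Its nearest neighbour, 974 bp away, held FLAG and Sin3a peaks from the Nanog + Sin3a line and no peak of the single-transgene lines. The same fold of 7.50 was found at 152163184-152163521 of chromosome 7, with another Nanog-line-only region 3949 bp away. The strongest regions thus included both flanks of shared sites and sites that stood several kb from any other peak.

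The remaining regions among the strongest had a fold of 7.35 and 47 fragments (34.5 to 62.5). They lay on chromosome 5 at 22028519-22028747 and 107586599-107586893 and on chromosome 9 at 34750672-34751013. The region on chromosome 9 was the most isolated of the 8, with the nearest other peak 43988 bp away and the nearest Sin3a peak of the Sin3a line 89088 bp away. At the other end, the weakest regions had a −log10 q of 1.30, a fold of 2.29 and 20 fragments, as on chromosome 5 at 115926520-115926773.

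A site without a peak has no deposited value, so the FLAG signal of the Nanog + Sin3a line at these regions is known only through the level at which that list calls peaks. The weakest summit in that list had a −log10 p of 3.51. At the expected background of each Nanog-line-only region, this level corresponds to a median fold of 2.59. Of 7290 regions with a recovered background, 7271 had a fold above it in the Nanog line. This count was nearly fixed in advance, because each region was itself called in the Nanog line, whose weakest summit had a −log10 p of 3.44. In the Nanog + Sin3a line a narrow site can exceed the level of the weakest summit and still stay uncalled, because peaks also have a minimum width (184 bp in that list). Among the narrowest peaks of the Nanog + Sin3a line, 99% had a −log10 p of at most 13.0, which corresponds to a median fold of 5.01. Of these regions, 513 (7.04%) had a fold above this second level, and 3 exceeded it at least 1.5 times. For the strongest region the levels were 2.47 and 4.93 in the Nanog + Sin3a line, against its fold of 7.97 in the Nanog line. For the regions under the second level, a FLAG signal in the Nanog + Sin3a line as high as that in the Nanog line could stay uncalled if it was too narrow. At the 7271 regions above the first level, a signal as high that also met the minimum width would have passed that level. The width of a signal without a peak cannot be seen with these lists.

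Regions on either side of the boundary of the rule could differ by a single base. Just inside it, the region on chromosome 8 at 72525110-72525409 (fold 2.81) ended on the base before a Sin3a peak called in the Nanog + Sin3a line (fold 3.19). A single base separated a peak of another list from the regions 86797697-86797919 of chromosome 12 (fold 3.08) and 136186929-136187112 of chromosome 5 (fold 3.63). Just outside it, FLAG peaks of the Nanog line shared 1 base with a peak of another list. These were 92735251-92735690 of chromosome 1 (fold 4.91) and, on chromosome 17, 24859971-24860164 (fold 3.56) and 31700688-31700885 (fold 4.14). In all, 295 of the 7334 regions lay within 100 bp of a peak of another list.

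Many Nanog-line-only regions flanked sites that other lists held. A region of another class lay within 1 kb of 30.8% of them (2261 regions), between 1 and 10 kb from 35.8% (2627) and farther than 10 kb from 33.4% (2446). Where the neighbour was within 1 kb, 77.6% of the neighbours (75.8 to 79.2%) held FLAG peaks of both lines, against 70.5% of all regions of other classes. A Sin3a peak was present in 62.5% of these neighbours (60.5 to 64.5%), against 50.6% of all regions of other classes. In 8.27% of these neighbours the only peak was FLAG in the Nanog + Sin3a line, so that a peak of each line stood beside the other, against 17.3% of all regions of other classes. Near and isolated regions were close in fold, with a median of 3.69 within 1 kb and of 3.78 beyond 10 kb, and with medians of 25 and 26 fragments. The median −log10 q was lower within 1 kb, at 5.06, than beyond 10 kb, at 5.62.

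Sin3a was precipitated only in lines with added Sin3a and not in the Nanog line, so its binding in the Nanog line is not known. Although no Sin3a peak of those lines overlapped them by the rule, Nanog-line-only regions lay closer to Sin3a peaks than other FLAG sites without a Sin3a peak did. Their median distance to a Sin3a peak of the Sin3a line was 15529 bp. It was 26634.5 bp for the 12306 regions with FLAG peaks in both lines and no Sin3a peak, and 38289 bp for the regions found with FLAG in the Nanog + Sin3a line only. Within 1 kb of such a Sin3a peak lay 15.6% of Nanog-line-only regions (14.8 to 16.5%), against 7.62% of the regions shared by both lines (7.17 to 8.10%) and 8.27% of the regions of the Nanog + Sin3a line only (7.63 to 8.95%). The differences were 8.02 points (7.07 to 8.98) and 7.37 points (6.31 to 8.43). With Sin3a peaks called in the Nanog + Sin3a line instead, the share was 16.9% for Nanog-line-only regions, against 8.62% for the shared regions and 8.81% for those of the Nanog + Sin3a line only. Nanog-line-only regions also had the highest share at longer range, where 72.9% of Nanog-line-only regions had a Sin3a peak of the Sin3a line within 50 kb, against 62.9% of the shared regions and 55.3% of those of the Nanog + Sin3a line only.

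**Figure D2:**
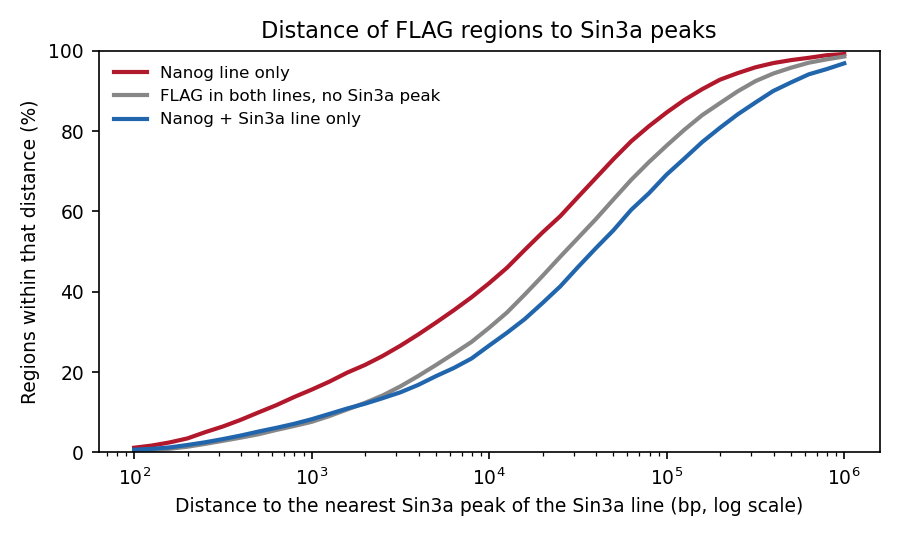
Cumulative share of regions (vertical axis, %) within a given distance of the nearest Sin3a peak of the Sin3a line (horizontal axis, bp, log scale) for Nanog-line-only regions (red), regions with FLAG peaks in both lines and no Sin3a peak (grey) and FLAG regions of the Nanog + Sin3a line only (blue). The red line lies above the others, at 15.6% against 7.62% and 8.27% within 1 kb.

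Nanog-line-only regions also had the highest share among peaks of like strength, up to a −log10 q of 25, while the order of the other classes changed between strengths. Among peaks with a −log10 q under 4, 19.1% of Nanog-line-only regions had a Sin3a peak of the Sin3a line within 1 kb, against 10.8% of peaks shared by both lines without Sin3a and 14.2% of peaks of the Nanog + Sin3a line only. At 8 to 10 the share was 12.6%, against 8.05% of the shared peaks and 4.62% of those of the Nanog + Sin3a line only. At 10 to 15 it was 11.7% (8.83 to 15.3%), against 8.33% of the shared peaks (7.28 to 9.51%, which overlaps it) and 2.71% of those of the Nanog + Sin3a line only (1.76 to 4.14%). At 15 to 25, with 66 Nanog-line-only regions, the interval of 5.23 to 20.3% included the 6.45% of the shared peaks. Width moved with the classes, at medians of 232 bp for Nanog-line-only regions, 324 bp for Nanog line peaks shared by both lines without Sin3a and 243 bp for the Nanog + Sin3a line only, and its part in the difference from the shared class was not tested. Nanog-line-only regions also more often had a neighbour of another class. Each class's own regions were left out, so the possible neighbours differed between classes. A region of another class lay within 1 kb of 30.8% of them, against 19.1% of the shared class and 19.04% of the Nanog + Sin3a line only. That neighbour held a Sin3a peak in 62.5% of cases for Nanog-line-only regions, 53.3% for the shared class and 51.3% for the Nanog + Sin3a line only. The share of Sin3a among all possible neighbours differs by class and was not compared across the classes.

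**Figure D3:**
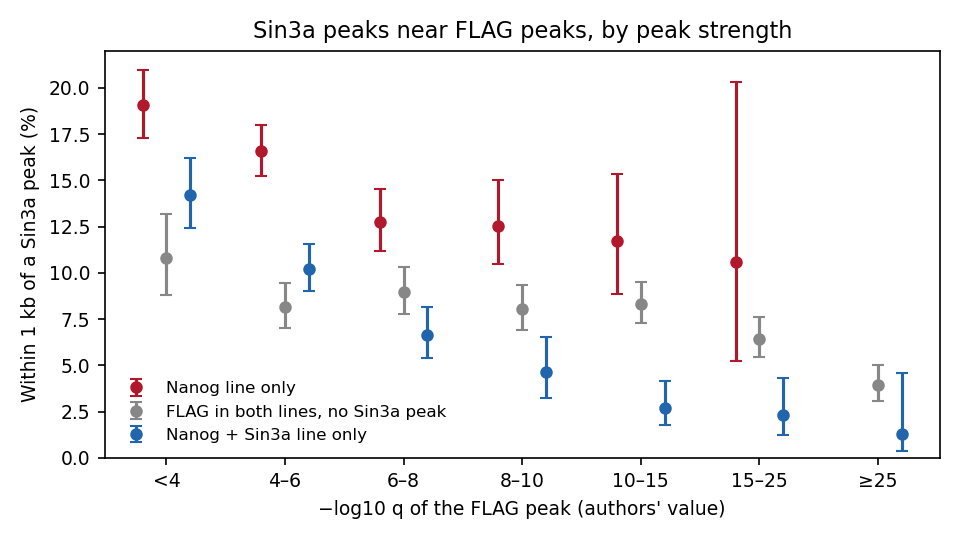
Share of FLAG peaks with a Sin3a peak of the Sin3a line within 1 kb (vertical axis, %, with 95% Wilson intervals) by −log10 q of the FLAG peak (horizontal axis), for Nanog-line-only regions (red), peaks of the Nanog line shared by both lines without Sin3a (grey) and peaks of the Nanog + Sin3a line only (blue); classes with fewer than 20 peaks in a bin are not drawn. The red points lie highest in each bin that holds them, from 19.1% under a −log10 q of 4 to 10.6% at 15 to 25.

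Sites bound in both lines, which the rule leaves out of the class, gave a measure of the surroundings. Their folds come from the same FLAG lists whose calls set the class, so the measure is not independent of the rule. At 23987 regions with 1 FLAG peak in each line, the fold of the Nanog + Sin3a line over that of the Nanog line had a median log2 ratio of -0.12 (quartiles -0.35 and 0.12). Sites with no Sin3a peak had a lower ratio where a Nanog-line-only region was near. Within 1 kb of one, the median fold was 4.43 in the Nanog + Sin3a line, against 4.82 for the Nanog line, with a median log2 ratio of -0.12 over 704 sites (quartiles -0.37 and 0.11). Beyond 10 kb the median folds were 4.80 in the Nanog + Sin3a line and 4.79 in the Nanog line, and the log2 ratio was -0.01 over 9303 sites (quartiles -0.26 and 0.28). The fold was lower in the Nanog + Sin3a line at 61.9% of the near sites and at 50.7% of the far ones. Near regions of the Nanog + Sin3a line only, the ratio went the other way, at 0.05 over 469 sites within 1 kb. The shift was small beside the spread between sites. Shared sites that also held Sin3a had about the same ratio at any distance from a Nanog-line-only region, -0.21 within 1 kb (980 sites) and -0.20 beyond 10 kb (8784 sites).

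Nanog-line-only regions also occurred in groups, which were not counted for any other class. Linked wherever neighbours lay within 20 kb of each other, 4382 regions (59.7%) stood alone and 1172 (16.0%) fell into 319 groups of 3 or more. The largest group held 10 regions on chromosome 15 between 31239392 and 31295130, with folds between 2.51 and 4.48. Over the same 55.7 kb the FLAG lists held 11 peaks in the Nanog + Sin3a line and, besides the 10 that define the group, 10 in the Nanog line, and the Sin3a lists held 6 in the Nanog + Sin3a line and 3 in the Sin3a line. The regions of this group interspersed with sites of the other lists rather than forming a separate block.

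**Figure D4:**
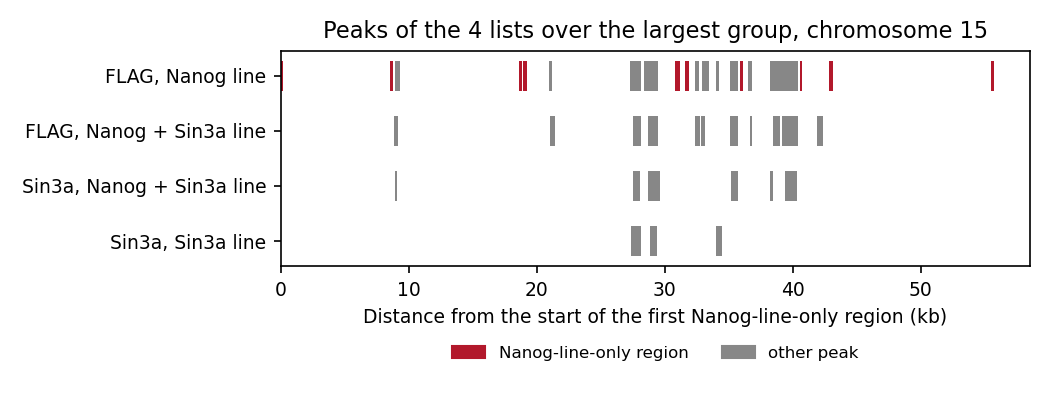
Peaks of the 4 lists (rows) over the largest group, by distance from the start of its leftmost Nanog-line-only region (horizontal axis, kb); bars show the extent of each peak, red for the 10 Nanog-line-only regions and grey for all other peaks. Red bars flank and alternate with grey bars of the same FLAG list, and the FLAG row of the Nanog + Sin3a line holds 11 peaks.

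Of the next largest groups, 9 regions lay on chromosome 1 between 137663886 and 137717648, where the FLAG lists held 5 peaks in the Nanog + Sin3a line and, besides these 9, 4 in the Nanog line. The expected background, which reflects the local density of control reads, was raised there, with a median of 1.49 times the genome-wide level, and its part in the group was not tested. A group of 8 on chromosome 10 between 80829196 and 80876573 sat among Sin3a sites, with 7 Sin3a peaks in the Nanog + Sin3a line and 5 in the Sin3a line, beside 7 FLAG peaks in the Nanog + Sin3a line and 7 further ones in the Nanog line. A further group of 8, on chromosome X between 47925451 and 47976344, held no Sin3a peak of either line, and 4 FLAG peaks in the Nanog + Sin3a line beside 4 further ones in the Nanog line. The FLAG fold was lower in the Nanog + Sin3a line at 4 of 8 shared sites in the group on chromosome 15, at 3 of 4 on chromosome 1, at 3 of 3 on chromosome 10 and at 3 of 4 on chromosome X, against 63.9% of all shared sites.

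By chromosome, the share of the Nanog line's FLAG peaks that were Nanog-line-only ran between 14.8% and 25.3%. Chromosome 18 had the highest share, with 310 of 1227 peaks (22.9 to 27.8%), and chromosome X the next, with 134 of 579 (23.1%, 19.9 to 26.7%). Chromosome 1, with 553 of 2604 (21.2%, 19.7 to 22.8%), also lay above the share of the whole list. Chromosome 13 had the lowest, with 230 of 1550 (14.8%, 13.2 to 16.7%), and the intervals of 16 of the 20 chromosomes included the share of the whole list. Control background was not compared between chromosomes. On chromosome 18 the shared sites, which the rule leaves out of the class, had a low ratio too. Their folds come from the same FLAG lists whose calls set the class, so this is not independent support. The log2 ratio of FLAG folds, Nanog + Sin3a line over Nanog line, had a median of -0.18 over 723 shared sites, the lowest of all chromosomes, against -0.12 over all shared sites. Sin3a had 449 peaks on this chromosome in the Nanog + Sin3a line and 383 in the Sin3a line, against 18231 and 17168 in the whole lists. The median log2 ratio at 276 shared Sin3a sites was 0.10. Chromosome 15 had a higher ratio, 0.13, with 934 and 790 Sin3a peaks, and its share of Nanog-line-only regions was 18.7%. A link between Sin3a and these shares was not tested.

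Chromosome X was high in both directions. Its regions of the Nanog + Sin3a line only were 28.9% of that line's FLAG peaks there (168 of 581), the highest share of any chromosome. Of all Nanog-line-only regions, 1.83% lay on chromosome X (1.54 to 2.16%), against 1.43% of the other FLAG peaks of the Nanog line (1.30 to 1.57%) and 1.80% of the Nanog line peaks shared by both lines without Sin3a. On chromosome 13 the classes went opposite ways, with 14.8% for the Nanog line and 22.3% for the Nanog + Sin3a line.

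**Figure D5:**
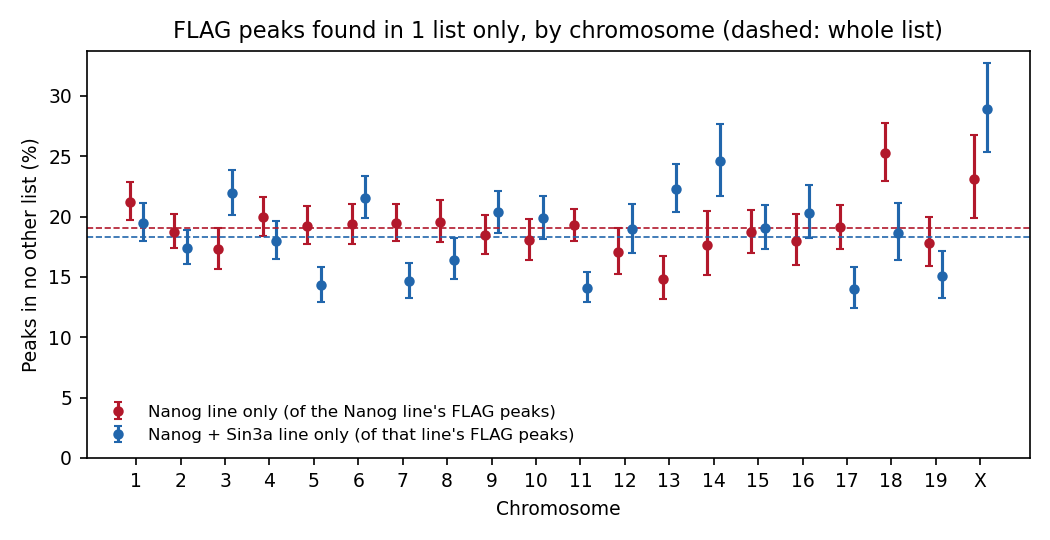
Share of FLAG peaks found in 1 list only (vertical axis, %, with 95% Wilson intervals) for each chromosome (horizontal axis) in the Nanog line (red) and the Nanog + Sin3a line (blue); dashed lines show the shares over the whole lists, 19.1% and 18.3%. Red is highest on chromosome 18 at 25.3%, and blue on chromosome X at 28.9%.

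Of 423 windows of 5 Mb with at least 20 FLAG peaks of the Nanog line, 24 had a share of Nanog-line-only regions whose interval lay above that of the list (5.67%), and 20 had one below it (4.73%). The highest shares were on chromosome 14 between 70000001 and 75000000, with 11 of 24 peaks (45.8%, 27.9 to 64.9%), on chromosome X between 45000001 and 50000000, with 14 of 33 (42.4%), and on chromosome 18 between 50000001 and 55000000, with 11 of 29 (37.9%). The highest share of any window was 37.5% among windows with at least 40 peaks, 68% with every list held to a −log10 q of 5 and 10% with only the Nanog line's FLAG list held to 10. The window on chromosome X holds the group of 8 regions described above. A well-filled window was that on chromosome 18 between 60000001 and 65000000, chosen after its values were seen, with 51 Nanog-line-only regions among 151 peaks (33.8%, 26.7 to 41.6%). There the Nanog + Sin3a line had 108 FLAG peaks, 11 of them in that list only. The lowest shares were 0 of 20 peaks on chromosome 10 between 50000001 and 55000000 and 0 of 20 on chromosome X between 15000001 and 20000000, where a count of 0 allows a share of up to 15% (3 counts of 20; the Wilson bound is 16.1%), and 1 of 30 on chromosome 14 between 60000001 and 65000000. High and low windows thus occurred on the same chromosomes, X and 14.

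The control background at the summits of Nanog-line-only regions was close to that of the rest of the list. Its median was 1.04 times the genome-wide level, against 1.00 for the other FLAG peaks of the Nanog line and 1.00 for the regions of the Nanog + Sin3a line only. It exceeded 1.5 times that level at 8.31% of Nanog-line-only regions (606), at 6.86% of the other peaks of the list and at 6.51% of the regions of the Nanog + Sin3a line only. The recovered background cannot fall below the genome-wide level, and 46.0% of Nanog-line-only regions and 48.9% of the other peaks of the list were at that floor. Most Nanog-line-only regions thus lay where control reads were at most 1.5 times their usual density. A density below the usual one cannot be seen with these values.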

How the data were processed

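ChIP-seq peaks of 4 groups were used, 1 deposited list without a header per group, and input and IgG were not analysed here. Per the submitters' processing notes, the tools were SAMtools 0.1.19, Bowtie 1.0.0 and FastQC 0.10.1, on build mm9, and their roles are not listed. The peak caller and any pooling of replicates were not given in the sources used here. The deposited values are the authors' own: fold enrichment is the ratio of ChIP to background at a summit, the −log10 p and −log10 q belong to the summit, the score is 10 times the −log10 q without decimals, and summits are given as an offset in bases.

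Whole ChIP fragments over a summit, and the expected background there, were recovered from fold and −log10 p, in every list for 99.5% of peaks or more. ChIP tags per control tag came to 1.37 (FLAG) and 1.30 (Sin3a) in the Nanog + Sin3a line, 1.15 in the Nanog line and 1.43 in the Sin3a line. The control depth came out at 25.9 tags per kb in all 4 lists. Read totals were not used, and depth is known through these values alone.

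Distances count the bases between regions. The regions named are the 8 with the highest −log10 q, those nearest to the edge of the rule, the largest groups and the windows with extreme shares. No genome or annotation of mm9 was used here, so no gene or sequence was assigned and the planned shares at transcription starts and motifs were not run. The class, the comparisons and the alternatives were chosen with earlier results of these data known. The code was tested on simulated data. Software was pandas 2.3.3, NumPy 2.4.6, SciPy 1.17.1 and, for plots, Matplotlib 3.10.9, under Python 3.11.15.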

Additional observations from a re-analysis of the deposited data

How the results depend on the processing

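No paired analysis was possible because the deposited peaks carry no replicate values, which also meant that no replicate could be left out. Alternatives for the overlap were 50% of the shorter peak, summits within 200 bp, peaks within 1 kb and single peaks without merging. Others held every list to a −log10 q of 5 or 10, or the Nanog line's FLAG list alone to 10. Another took equal numbers of top FLAG peaks. Single peaks without merging had to give the same count of 7334, because peaks of the same list never overlapped. The causes of the shifts were not tested, beyond the fewer or stronger peaks that stricter settings keep.

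The class held 19.1% of the list (7334 regions), and 20.4% by 50% of the shorter peak, 24.4% by summits, 13.3% by peaks within 1 kb, 17.1% with equal numbers, and 18.5% (3386 regions) at a −log10 q of 10 in every list. It fell to 2.41% (443 regions) when the Nanog line's FLAG list alone was held to 10. Regions with a −log10 q of 10 or more numbered 443, but 858 and 3386 when every list was held to 5 and 10, and 944 by summits. The median fold of all Nanog-line-only regions, 3.69, was 3.78 by summits, 3.74 by peaks within 1 kb, 3.84 with equal numbers, 4.14 and 5.52 with every list held to 5 and 10, and 5.36 with the FLAG list alone at 10.

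The share within 1 kb of a Sin3a peak of the Sin3a line (15.6%) was 18.2% by 50% of the shorter peak, 27.1% by summits, 12.02% and 7.71% with every list held to 5 and 10, and 11.5% with the FLAG list alone at 10. By 50% of the shorter peak and by summits, a region can overlap a Sin3a peak, and such an overlap counts as within 1 kb. These shares are thus not the same measure as the 15.6%, which holds no overlap. By peaks within 1 kb the share is 0 by construction. Its difference from the class shared by both lines stayed positive under every alternative that gave a value, between 3.51 and 8.53 points. The share on chromosome 18 (25.3%) was 30.8% by summits, 22.7% with equal numbers, 18.3% by peaks within 1 kb and 3.41% with the FLAG list alone at 10. It stayed above the share of the whole list in these settings, which was 24.4%, 17.1%, 13.3% and 2.41% in that order. In the last setting, however, the interval on chromosome 18 was 2.22 to 5.21%, which included the share of the list. The share of the class on chromosome X was 1.83%, and 1.13% (0.48 to 2.61%) in that last setting. The median background of 1.04 was 1 with equal numbers and at each threshold on −log10 q. The count of regions above the calling level of the Nanog + Sin3a line was 7271 at its weakest summit, which calling in the Nanog line nearly fixes. It was 513 at the level of the narrowest peaks of the Nanog + Sin3a line.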

Other observations

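A few Nanog-line-only regions lay where control reads were dense. The expected background exceeded 5 times the genome-wide level at 13 of the 7290 regions with a recovered background, which were chosen after their values were seen. The highest was on chromosome 17 at 39984443-39985760, at 50.7 times that level, with 365 fragments over the summit and a fold of 1.33, the lowest fold of all Nanog-line-only regions. Of the 10 regions with the highest background, 4 lay on chromosome X between 166419826 and 166443484, with folds between 1.45 and 1.83. The strongest of the 10, at 11144133-11144378 of chromosome 16, had a −log10 q of 14.4, a fold of 2.33 and a background 11.95 times the genome-wide level.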
